A study of Homo sapiens with 12 samples.

Results

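The chemokines, the interleukins and their receptors were followed probe by probe in U937 cells given EX527 or MC2494. All probes of the signal table whose platform gene symbol is CCL, CXCL, CCR, CXCR or IL followed by a digit, or is CX3CL1, CX3CR1, XCL1 or XCR1, were taken. This gave 182 of 24526 probes, for 135 of 16922 named genes. By symbol 89 probes were ligands, 84 were receptors or receptor chains, and 9 were regulators: the antagonists encoded by IL1RN and IL36RN, the IL-18 binding protein encoded by IL18BP, and IL4I1, an enzyme that carries the name only. U937 is a human leukaemia line of monocytic character, grown here as the 1 line behind every array. The 12 bead arrays held 4 control arrays, 4 of cells given EX527, an inhibitor of the deacetylase SIRT1, and 4 of cells given MC2494, named in the series title as a sirtuin inhibitor, each for 24 h. The labels give no dose and no vehicle. Nor do they tell if replicate arrays stem from independent cultures, and each p-value therefore reflects array-to-array spread alone, which could be technical.

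Chemokines are small secreted proteins that guide white blood cells. They are named for the spacing of their first cysteines, adjacent in the CC family and parted by another residue in the CXC family, and they act through receptors that couple to G proteins. Interleukins are secreted signals between white blood cells. Most bind receptors built from several chains that signal through JAK kinases and STAT factors, while the IL-1 and IL-18 group signals through the adaptor MYD88. Monocytic cells are a major source of CCL2, CXCL8 and IL-1 beta, and many of these genes can be switched on by the factor NF-kappaB.

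Mean raw signal per array lay between 764 and 792.6 in control, between 710.7 and 783.2 in EX527 and between 623.4 and 694.6 in MC2494, and quantile normalization removed this difference. Of 17 listed markers of a monocytic leukaemia line, 12 were detected on all 12 arrays, while MPO, the myeloperoxidase of granulocyte precursors, was detected on none. The summed raw signal of that list was 36940 to 38450 in control, 33140 to 37010 in EX527 and 33420 to 37020 in MC2494. Of its 14 measured genes 7 were called higher and 4 lower in MC2494, beside 35.4% and 35.3% of all tested probes. LYZ stood there at -1.83, CD36 at -1.46 and CEBPE at 1.26 (log2). In EX527 2 were called higher and 10 lower, beside 24.3% and 30.0% of all tested probes. Of 13 lymphocyte markers with a probe, 5 were measured and 8 were detected on no array, among them CD3D, CD3E, CD2 and PAX5. The summed raw signal of the lymphocyte list was 10250 to 10870 in control, 9458 to 10690 in EX527 and 7439 to 8459 in MC2494. These sums were not scaled between arrays, and mean raw signal was itself lowest in MC2494. Of the 5 measured genes of that list 1 was called higher and 1 lower in MC2494, and again 1 and 1 in EX527. Their median log2 difference was -0.06 in MC2494 and -0.11 in EX527. CD79A, a B cell receptor gene, fell in MC2494 (-1.70) and in EX527 (-1.59). The part of these marker genes in the results was not tested. The third principal component, with 2.6% of the variance, parted replicates 1 and 2 from replicates 3 and 4 in each of the 3 groups, and no label names a batch.

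A probe was tested when its detection p was under 0.05 on at least 4 of the 12 arrays, and 64 of the 182 probes, for 55 genes, passed. They were 25 of 89 ligand probes, 35 of 84 receptor probes and 4 of 9 regulator probes. Of all 182, 41 were detected on 12 arrays, 16 on 1 to 3 arrays and 102 on none. The probes of CXCL6 and IL7R passed through 1 group alone, so that a difference in those genes follows in part from the filter. Among the genes detected on no array were IL6, IL1A, IL12B, CXCL1, CXCL3, CXCL10, CX3CL1, CCR2, CXCR1, CXCR6, IL7 and IL1R1. Several tested genes thus lacked a detected partner: CX3CR1 its ligand CX3CL1, CXCL16 its receptor CXCR6, CCL2 and CCL7 their main receptor CCR2, IL7R its ligand IL7, and IL6R its ligand IL6.

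Signals are given below as normalized log2 values, on which 1 unit is a 2-fold change, with arrays 1 to 4 of each group in turn. A difference is written as called at an adjusted p under 0.05 in a limma model of all 12 arrays, adjusted by the Benjamini-Hochberg method over 13174 probes. Errors are standard errors from that model with 4 arrays per group. Both comparisons with control use the same control arrays. In bulk RNA, fewer cells that express a gene and less RNA per cell cannot be told apart.

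Among the CC ligands, CCL2 and CCL7, neighbouring genes whose products attract monocytes, were low in MC2494 and near control in EX527. CCL2 read 12.99, 12.92, 12.97 and 12.83 in control, 13.14, 13.08, 13.02 and 12.95 in EX527, and 10.95, 10.76, 10.76 and 10.84 in MC2494. All MC2494 arrays lay below all others, and control and EX527 overlapped. The fall of CCL2 in MC2494 was 4.28-fold (log2 difference -2.10 ± 0.06, limma adjusted p = 3.61e-12), and EX527 differed from control by 0.12 ± 0.06 (adjusted p = 0.12). CCL7 read 6.28, 6.24, 6.41 and 6.15 in control, 6.25, 6.08, 6.11 and 6.26 in EX527, and 4.58, 4.59, 4.78 and 4.64 in MC2494. No MC2494 array detected CCL7, and these arrays again lay below all others. CCL7 was at least 2.21-fold lower in MC2494 than in control (limma adjusted p = 9.08e-11), with measured means of 4.64 and 6.27. In EX527 it differed from control by -0.09 ± 0.07 (adjusted p = 0.285).

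CXCL8, the main attractant of neutrophils, moved in opposite directions with the compounds. It read 13.15, 12.97, 13.19 and 13.06 in control, 13.94, 13.81, 14.08 and 13.85 in EX527, and 11.89, 11.76, 11.94 and 11.97 in MC2494. The 3 groups did not overlap, with EX527 highest and MC2494 lowest. CXCL8 rose 1.77-fold in EX527 (0.83 ± 0.07, limma adjusted p = 6.51e-07), fell 2.3-fold in MC2494 (-1.20 ± 0.07, adjusted p = 3.24e-09), and was 4.08-fold lower in MC2494 than in EX527 (-2.03 ± 0.07, adjusted p = 3.68e-11). CXCL2, which acts on the receptor CXCR2 as CXCL8 does, read 6.37, 5.75, 5.92 and 5.93 in control, 6.15, 6.10, 6.10 and 5.87 in EX527, and 5.06, 5.10, 5.05 and 5.08 in MC2494. MC2494 lay below the other groups, with detection on 1 of its 4 arrays, and control and EX527 overlapped. CXCL2 was 1.89-fold lower in MC2494 than in control by fitted values (limma adjusted p = 2.78e-06), and differed from control in EX527 by 0.06 ± 0.11 (adjusted p = 0.659). CXCL6, the neighbour of CXCL8, was detected on the 4 control arrays alone, with measured means of 5.27 in control, 4.93 in EX527 and 4.80 in MC2494. It was at least 1.1-fold lower in MC2494 (limma adjusted p = 0.000104) and at least 1.07-fold lower in EX527 (adjusted p = 0.00256), the latter call lost in replicates 1 and 2 alone. As CXCL6 passed the filter through control alone, both differences follow in part from the filter.

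**Figure D1:**
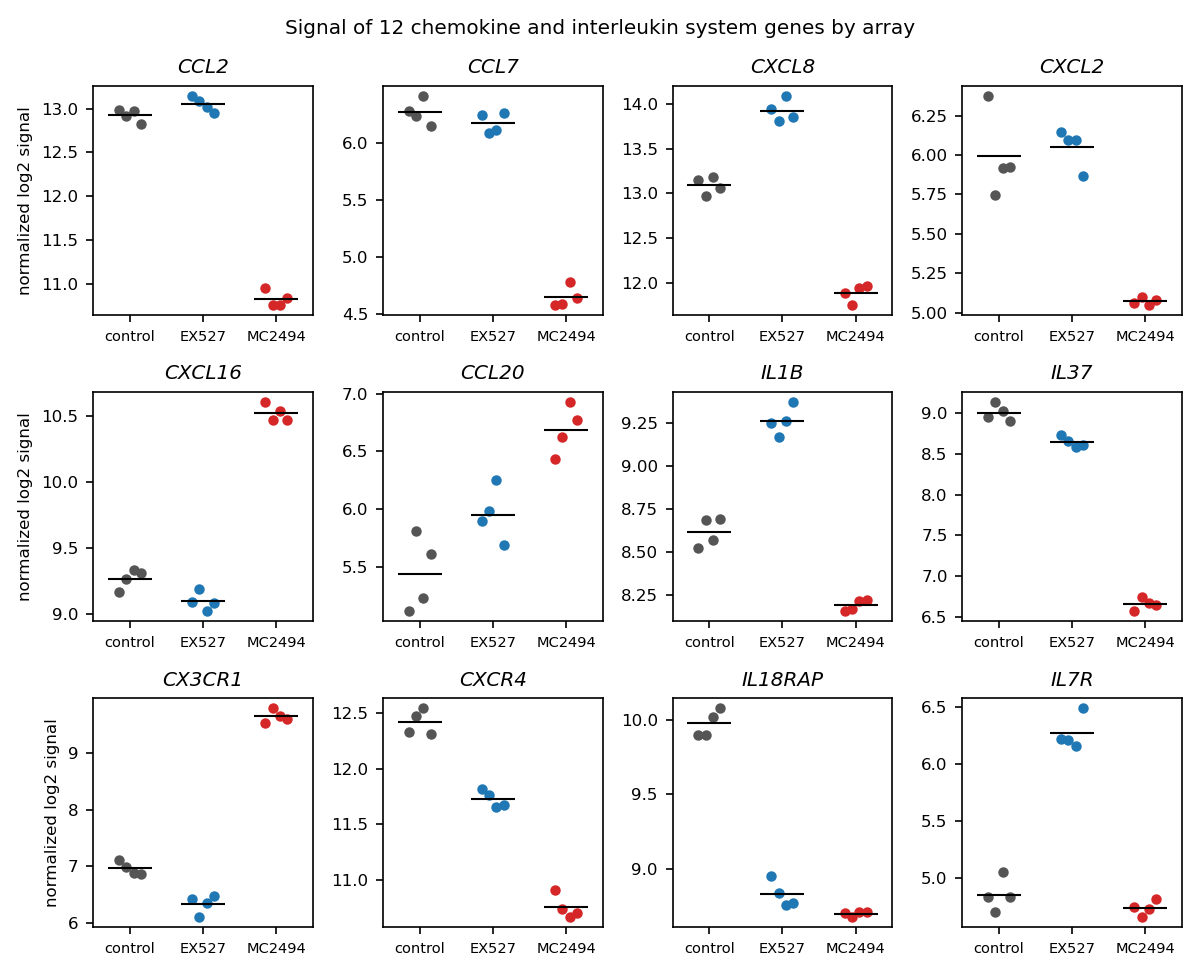
Normalized log2 signal (vertical axis, own range in each panel) of 12 genes on the 12 arrays, with 4 points per group and a bar at the group mean. CCL2 and CCL7 are low in MC2494 alone, CXCL8 and IL1B are high in EX527 and low in MC2494, and CX3CR1 has a mean of 9.65 in MC2494 against 6.97 in control.

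Promoter windows of 250 bases before the start of transcription were at hand for 48 of the 55 tested genes (RefSeq, GRCh38.p14). They were searched on both strands for the NF-kappaB letters GGANTTTCC, the AP-1 letters TGANTCA and the C/EBP-ATF letters TGATGNAA. CCL2, CCL5, CXCL16, CCR10, IL18, IL17RA and IL2RB had no window and were not searched. The NF-kappaB letters were in 6 of the 48 windows and in 1.47% of 27305 such windows over all genes. The AP-1 letters were in 7 of the 48 and in 6.6% of all windows, and the C/EBP-ATF letters in 4 and in 3.19%. The 6 windows with NF-kappaB letters are shown because they hold the CXC ligands just described and let their matches be compared. Capitals mark NF-kappaB matches and, in CXCL8, the AP-1 match farther from the start. The windows are those of CXCL8 (chr4:73740319-73740568, plus strand), CXCL6 (chr4:73836428-73836677, plus strand), CXCL2 (chr4:74099196-74099445, minus strand), IL18RAP (chr2:102418371-102418620, plus strand), IL27RA (chr19:14031512-14031761, plus strand) and IL32 (chr16:3065153-3065402, plus strand), each written 5′ to 3′ on the strand of its gene.
CXCL8: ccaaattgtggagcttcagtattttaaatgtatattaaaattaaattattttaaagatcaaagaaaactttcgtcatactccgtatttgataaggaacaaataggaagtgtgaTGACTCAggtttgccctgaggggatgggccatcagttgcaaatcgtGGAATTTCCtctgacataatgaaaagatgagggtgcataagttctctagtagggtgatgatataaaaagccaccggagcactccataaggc
CXCL6: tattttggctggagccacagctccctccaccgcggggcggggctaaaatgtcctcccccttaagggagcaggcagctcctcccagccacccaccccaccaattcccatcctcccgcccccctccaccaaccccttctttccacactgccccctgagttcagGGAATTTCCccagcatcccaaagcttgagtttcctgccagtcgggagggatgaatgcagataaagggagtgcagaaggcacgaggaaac
CXCL2: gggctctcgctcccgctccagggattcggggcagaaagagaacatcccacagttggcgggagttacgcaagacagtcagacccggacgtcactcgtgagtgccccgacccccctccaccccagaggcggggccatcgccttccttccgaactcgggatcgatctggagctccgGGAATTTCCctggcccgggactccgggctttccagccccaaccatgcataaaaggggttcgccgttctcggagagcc
IL18RAP: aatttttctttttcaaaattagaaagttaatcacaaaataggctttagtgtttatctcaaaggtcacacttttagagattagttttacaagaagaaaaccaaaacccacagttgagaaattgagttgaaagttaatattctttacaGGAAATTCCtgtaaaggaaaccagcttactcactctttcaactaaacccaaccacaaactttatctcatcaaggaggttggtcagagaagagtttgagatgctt
IL27RA: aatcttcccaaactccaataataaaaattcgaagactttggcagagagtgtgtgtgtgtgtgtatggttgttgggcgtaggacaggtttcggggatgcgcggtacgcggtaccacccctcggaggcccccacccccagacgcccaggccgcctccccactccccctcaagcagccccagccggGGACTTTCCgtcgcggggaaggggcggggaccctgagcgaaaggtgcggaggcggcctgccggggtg
IL32: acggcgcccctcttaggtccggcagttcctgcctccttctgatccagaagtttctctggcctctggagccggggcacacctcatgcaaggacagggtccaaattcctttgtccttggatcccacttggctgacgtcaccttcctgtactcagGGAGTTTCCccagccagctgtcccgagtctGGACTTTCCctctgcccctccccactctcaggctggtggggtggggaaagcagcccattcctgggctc

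CXCL8, CXCL6 and CXCL2 shared 1 form of the match, which began 91, 89 and 77 bases before the start. IL32 held a pair of matches, beginning 98 and 68 bases before it, and IL18RAP held the form of those CXC ligands on the opposite strand. All 6 genes were called lower in MC2494 than in control, but CXCL6 had passed the filter through control alone. In EX527 CXCL8 was called higher (0.83), CXCL2 and both IL32 probes were not called, and CXCL6, IL18RAP and IL27RA were called lower. Over all measured genes the shares that fell were close with and without these letters: of 125 genes with them 36.8% were called lower in MC2494, and of 8186 without them 34.9%. In EX527 the shares called lower were 29.6% and 30.5%. The shares called higher were 39.2% with and 37.5% without these letters in MC2494, and 31.2% and 25.7% in EX527. A match of letters describes the window and is not a binding site.

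CXCL16 and CCL20 rose in MC2494. CXCL16, made as a membrane protein that can take up lipoproteins or be shed, read 9.17, 9.26, 9.33 and 9.31 in control, 9.09, 9.19, 9.02 and 9.08 in EX527, and 10.61, 10.47, 10.54 and 10.47 in MC2494. All MC2494 arrays lay above all others, and EX527 overlapped control. CXCL16 rose 2.38-fold in MC2494 (1.25 ± 0.06, limma adjusted p = 1.95e-10). Its small fall in EX527 (-0.17 ± 0.06, adjusted p = 0.0209) was lost with no scaling between arrays, in replicates 1 and 2 alone, and without control replicate 3, control replicate 4 or EX527 replicate 3 (adjusted p up to 0.527). CCL20, the ligand of CCR6, read 5.12, 5.81, 5.23 and 5.61 in control, 5.89, 5.98, 6.25 and 5.69 in EX527, and 6.43, 6.62, 6.92 and 6.77 in MC2494. It was detected on 3 of the 4 control arrays, MC2494 lay above the other groups, and EX527 overlapped control. CCL20 was 2.37-fold higher in MC2494 (1.25 ± 0.16, limma adjusted p = 5.6e-06). In EX527 it was 1.43-fold higher (0.51 ± 0.16, adjusted p = 0.0129), which was not called in either pair of replicates, 1 with 2 or 3 with 4 (adjusted p up to 0.105).

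CCL23, a ligand of CCR1, had the largest fall of the 13 tested chemokine ligand probes in EX527. Its brighter probe read 11.23, 11.21, 11.23 and 11.30 in control, 10.46, 10.43, 10.32 and 10.36 in EX527, and 10.86, 10.98, 10.85 and 10.87 in MC2494. The groups did not overlap, and MC2494 lay between the others. The fall was 1.8-fold in EX527 (-0.85 ± 0.05, limma adjusted p = 2.38e-08) and 1.27-fold in MC2494 (-0.35 ± 0.05, adjusted p = 3.38e-05). The dimmer CCL23 probe read 8.61, 8.59, 8.84 and 8.66 in control, 7.64, 7.47, 7.69 and 7.71 in EX527, and 8.10, 7.96, 8.26 and 8.29 in MC2494. Its groups lay in the same order without overlap, and it gave -1.05 in EX527 and -0.52 in MC2494. CCL5, an attractant of T cells and monocytes, fell in EX527 (-0.39 ± 0.06) and in MC2494 (-0.20 ± 0.06), the latter not called in replicates 1 and 2 alone (-0.11). CCL5 was called higher in MC2494 than in EX527 (0.19, limma adjusted p = 0.0129), a call lost with median scaling and in either pair of replicates alone, and a difference that turned sign with no scaling between arrays. CCL26, which acts on eosinophils, fell in MC2494 (-0.43) and in EX527 (-0.27), with overlapping groups in EX527. The EX527 call for CCL26 was lost, besides under stricter thresholds, in 6 alternatives: no scaling (adjusted p = 0.0753), another variance model, replicates 1 and 2 alone, and the removal of control replicate 3 or 4 or EX527 replicate 4. CCL3, an inflammatory ligand of CCR1, rose in EX527 (0.35, not called in replicates 1 and 2 alone) and was not called in MC2494 (0.04). CCL3L3, a near-identical copy of it, fell in MC2494 (-0.39) and was not called in EX527 (0.09). The copies can share transcripts on a probe, so these values are uncertain.

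In the IL-1 family, the agonist, the antagonist and IL-37 took different courses. IL1B, the gene of the fever-inducing IL-1 beta, read 8.52, 8.69, 8.57 and 8.69 in control, 9.25, 9.16, 9.26 and 9.37 in EX527, and 8.16, 8.17, 8.22 and 8.22 in MC2494. The groups did not overlap, with EX527 highest and MC2494 lowest. IL1B rose 1.56-fold in EX527 (0.64 ± 0.06, limma adjusted p = 8.65e-07) and fell 1.34-fold in MC2494 (-0.43 ± 0.06, adjusted p = 1.56e-05). IL37, the neighbour of IL1B, whose product is known to damp inflammation, read 8.96, 9.13, 9.03 and 8.90 in control, 8.73, 8.66, 8.59 and 8.61 in EX527, and 6.57, 6.74, 6.67 and 6.65 in MC2494. There was no overlap, and MC2494 lay far below the others. IL37 fell 5.08-fold in MC2494 (-2.34 ± 0.06, limma adjusted p = 1.1e-12), the largest fall of the 64 tested probes, and 1.28-fold in EX527 (-0.36 ± 0.06, adjusted p = 0.000267). Other IL37 probes were detected on no array.

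IL1RN encodes the antagonist that occupies the IL-1 receptor without signalling. Its brighter probe read 7.86, 7.79, 7.89 and 8.03 in control, 7.55, 7.47, 7.53 and 7.43 in EX527, and 8.47, 8.65, 8.52 and 8.66 in MC2494. No group overlapped another, and their order was the reverse of that for IL1B. IL1RN was 1.6-fold higher in MC2494 (0.68 ± 0.07, limma adjusted p = 3.55e-07) and 1.32-fold lower in EX527 (-0.40 ± 0.07, adjusted p = 0.000155). The dimmer probe read 6.03, 5.82, 5.72 and 5.91 in control, 5.81, 5.34, 5.53 and 5.74 in EX527, and 6.80, 6.83, 6.75 and 6.76 in MC2494. MC2494 lay above the other groups, which overlapped. The dimmer probe gave 0.91 in MC2494 and -0.27 in EX527, the latter call lost with no scaling, with only those groups in the fit, in either pair of replicates alone, and without control replicate 1 or 4 or EX527 replicate 2 or 3. Compared with EX527, MC2494 was 2.1-fold lower for IL1B (limma adjusted p = 2.08e-09) and 2.11-fold higher for IL1RN (adjusted p = 5.21e-09).

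For IL-18, which matures as IL-1 beta does, the ligand, its binding protein and both receptor chains were measured. IL18 was called higher in MC2494 (0.38 ± 0.06, limma adjusted p = 8e-05) and in EX527 (0.31 ± 0.06, adjusted p = 0.000937). The EX527 call was lost in replicates 3 and 4 alone, and both calls were lost with median scaling and with no scaling, where MC2494 gave 0.07 and 0.06. IL18R1, the chain that binds IL-18, read 9.20, 9.23, 9.11 and 9.09 in control, 9.47, 9.51, 9.54 and 9.48 in EX527, and 9.87, 9.88, 9.92 and 9.96 in MC2494. No group overlapped another, with control lowest and MC2494 highest. IL18R1 rose 1.68-fold in MC2494 (0.75 ± 0.05, limma adjusted p = 8.57e-09) and 1.27-fold in EX527 (0.34 ± 0.05, adjusted p = 6.65e-05). Its neighbour IL18RAP, the accessory chain needed for signalling, read 9.90, 9.90, 10.02 and 10.07 in control, 8.96, 8.84, 8.76 and 8.78 in EX527, and 8.71, 8.68, 8.72 and 8.72 in MC2494. Both treated groups lay well below control. IL18RAP fell 2.41-fold in MC2494 (-1.27 ± 0.06, limma adjusted p = 2.12e-10) and 2.2-fold in EX527 (-1.14 ± 0.06, adjusted p = 5.84e-09), and the compounds differed by -0.13 ± 0.06 (adjusted p = 0.0756). IL18BP, whose product traps IL-18, was lower in EX527 (-0.35, limma adjusted p = 0.00149), which was not called in replicates 1 and 2 alone. It was called higher in MC2494 (0.22, adjusted p = 0.0209), a call lost with both changes of scaling (adjusted p up to 0.484), in either pair of replicates alone and without control replicate 1.

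Of the remaining interleukin ligands, IL12A, a subunit of IL-12, read 6.37, 6.32, 6.40 and 6.02 in control, 6.11, 5.66, 6.17 and 5.98 in EX527, and 5.44, 5.59, 5.67 and 5.68 in MC2494. MC2494 lay below control, and EX527 overlapped both. IL12A fell 1.6-fold in MC2494 (-0.68 ± 0.11, limma adjusted p = 7.65e-05), and its call in EX527 (-0.29, adjusted p = 0.0383) was lost in 10 of the alternatives, among them the removal of control replicate 1, 2 or 3 or EX527 replicate 2 or 4. IL23A, the subunit particular to IL-23, rose in EX527 (0.55) and in MC2494 (0.40). IL32, an inducer of other cytokines, fell in MC2494 on both probes (-0.57 and -0.18, the latter not called in replicates 1 and 2 alone) and was not called in EX527 (-0.06 and 0.14). IL16, whose product attracts cells that carry CD4, fell in EX527 on its brighter probe (-0.57). Its dimmer probe, detected on 1 of 4 EX527 arrays, was also called lower there (-0.33), but not without EX527 replicate 1 or 2 or in replicates 3 and 4 alone (adjusted p up to 0.239). IL10, which restrains macrophages, rose in EX527 (0.26, not called in replicates 3 and 4 alone) and was not called in MC2494 (0.14).

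**Figure D2:**
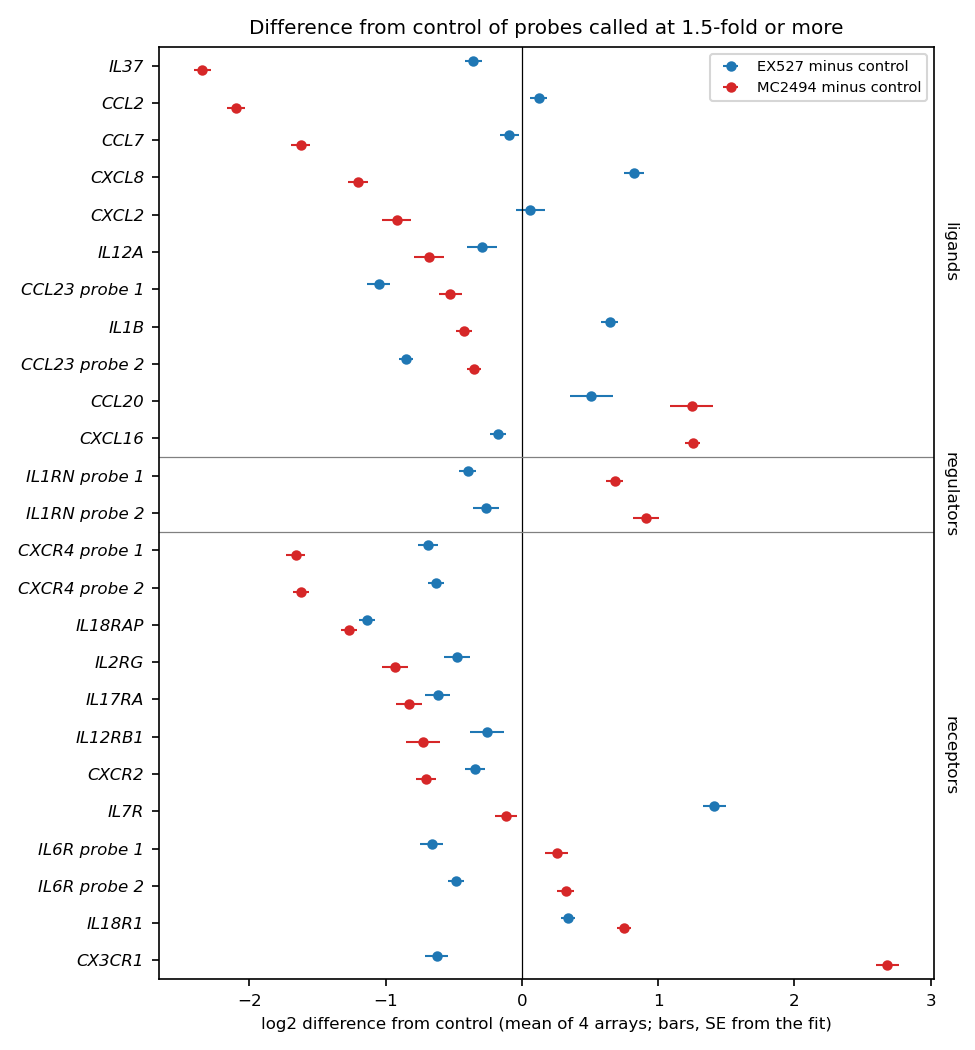
Log2 difference from control (horizontal axis; points are means of 4 arrays minus 4 control arrays, bars are standard errors of the fit) for the 25 probes called at 1.5-fold or more in at least 1 of the 3 comparisons, by class. EX527 and MC2494 lie on opposite sides of 0 for CXCL8, IL1B, IL1RN, IL6R and CX3CR1, and on the same side for CXCR4, IL18RAP and CCL23.

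Among the chemokine receptors, CX3CR1, the receptor of the membrane-bound chemokine fractalkine and a marker of patrolling monocytes, had the largest difference. It read 7.11, 7.00, 6.89 and 6.87 in control, 6.43, 6.10, 6.35 and 6.48 in EX527, and 9.54, 9.79, 9.67 and 9.60 in MC2494. The 3 groups did not overlap, with MC2494 far above control and EX527 below it. CX3CR1 rose 6.42-fold in MC2494 (2.68 ± 0.09, limma adjusted p = 6.13e-12), fell 1.54-fold in EX527 (-0.63 ± 0.09, adjusted p = 3.73e-05), and was 9.91-fold higher in MC2494 than in EX527. Over the 12 arrays the named probes that ran most like it were RNF135 (Pearson r = 0.994), GALNT10 (0.994) and RAB11FIP1 (0.993). RNF135 had means of 8.73 in control, 8.61 in EX527 and 9.28 in MC2494. The arrays fall into 3 groups, so these coefficients describe the group means and are no test.

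CXCR4, the receptor for CXCL12 that holds blood precursors in the marrow, fell with both compounds. Its brighter probe read 12.33, 12.48, 12.54 and 12.32 in control, 11.82, 11.77, 11.65 and 11.67 in EX527, and 10.91, 10.74, 10.67 and 10.70 in MC2494. The groups did not overlap, with control highest and MC2494 lowest. CXCR4 fell 3.16-fold in MC2494 (-1.66 ± 0.07, limma adjusted p = 9.44e-11) and 1.61-fold in EX527 (-0.69 ± 0.07, adjusted p = 2.9e-06), and was 1.96-fold lower in MC2494 than in EX527 (adjusted p = 4.21e-08). The other tested CXCR4 probe read 11.04, 11.13, 11.03 and 11.05 in control, 10.48, 10.36, 10.39 and 10.50 in EX527, and 9.50, 9.34, 9.42 and 9.50 in MC2494. It showed the same order without overlap and gave -1.62 and -0.63, and a further probe was detected on no array. CXCR2, the receptor for CXCL8 and CXCL2, read 7.38, 7.49, 7.37 and 7.27 in control, 6.91, 6.93, 7.09 and 7.20 in EX527, and 6.73, 6.61, 6.59 and 6.78 in MC2494. These groups again kept apart, in the same order as for CXCR4. CXCR2 fell 1.63-fold in MC2494 (-0.70 ± 0.08, limma adjusted p = 1.17e-06) and 1.27-fold in EX527 (-0.35 ± 0.08, adjusted p = 0.00151), the latter call lost in replicates 3 and 4 alone. CCR1, a receptor for CCL3, CCL5 and CCL23, rose in MC2494 (0.56) and was not called in EX527 (0.13). CCR6, the receptor for CCL20, was called higher in MC2494 (0.15) and in EX527 (0.19), but with median scaling the difference in MC2494 was -0.05 and that in EX527 was not called. Neither call for CCR6 held in either pair of replicates alone, that in MC2494 was lost without control replicate 4, and the other CCR6 probe was detected on no array.

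Interleukin receptor chains included the 1 tested receptor seen in EX527 alone. IL7R, the IL-7 receptor chain on which lymphoid cells depend, read 4.83, 4.70, 5.05 and 4.83 in control, 6.22, 6.21, 6.16 and 6.48 in EX527, and 4.74, 4.66, 4.73 and 4.82 in MC2494. It was detected on all 4 EX527 arrays and on no other array. As it passed the filter through EX527 alone, its differences from the other groups follow in part from the filter. IL7R was at least 2.12-fold higher in EX527 than in control (limma adjusted p = 1.57e-08) and at least 2.2-fold higher than in MC2494 (adjusted p = 1.87e-09). IL6R, the chain that binds IL-6, split by compound on both probes. Its brighter probe read 9.11, 8.90, 9.07 and 8.76 in control, 8.19, 8.44, 8.24 and 8.31 in EX527, and 9.25, 9.35, 9.08 and 9.17 in MC2494. EX527 lay below the other groups, which overlapped. IL6R fell 1.58-fold in EX527 (-0.66 ± 0.09, limma adjusted p = 2.21e-05) and was 1.89-fold higher in MC2494 than in EX527 (adjusted p = 5.25e-07). Against control MC2494 gave 0.26 ± 0.09 (adjusted p = 0.0165), a call lost with both changes of scaling, in either pair of replicates alone, and without control replicate 4 or MC2494 replicate 2 (adjusted p up to 0.215). The dimmer IL6R probe read 7.62, 7.54, 7.49 and 7.46 in control, 7.15, 7.11, 7.01 and 6.90 in EX527, and 7.82, 7.85, 7.85 and 7.88 in MC2494. Here no group overlapped another, and the differences from control were -0.48 in EX527 and 0.32 in MC2494.

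IL2RG, IL17RA and IL12RB1 were lower in MC2494. IL2RG, the common gamma chain of the receptors for IL-2, IL-4, IL-7 and IL-15, read 6.01, 6.19, 6.18 and 5.96 in control, 5.73, 5.60, 5.62 and 5.50 in EX527, and 4.91, 5.42, 5.15 and 5.15 in MC2494. The groups did not overlap, and 3 of 4 MC2494 arrays detected it. IL2RG was 1.91-fold lower in MC2494 by fitted values (-0.93 ± 0.10, limma adjusted p = 7.32e-07) and 1.39-fold lower in EX527 (-0.48 ± 0.10, adjusted p = 0.000804), the latter lost in replicates 1 and 2 alone. IL17RA, the shared chain of the IL-17 receptors, read 8.28, 8.24, 8.40 and 8.46 in control, 7.74, 7.54, 7.80 and 7.82 in EX527, and 7.26, 7.66, 7.66 and 7.49 in MC2494. Both treated groups lay below control and overlapped each other. IL17RA fell 1.77-fold in MC2494 (-0.83 ± 0.09, limma adjusted p = 1.88e-06) and 1.54-fold in EX527 (-0.62 ± 0.09, adjusted p = 7.54e-05). IL12RB1, a chain of the receptors for IL-12 and IL-23, read 6.20, 6.25, 6.29 and 6.33 in control, 5.80, 6.31, 6.23 and 5.71 in EX527, and 5.54, 5.68, 5.63 and 5.32 in MC2494. MC2494 lay below the other groups, and EX527 overlapped control. IL12RB1 fell 1.65-fold in MC2494 (-0.73 ± 0.12, limma adjusted p = 0.000104) and differed from control by -0.25 ± 0.12 in EX527 (adjusted p = 0.0963).

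Smaller differences in receptor chains followed. IL27RA, the receptor chain particular to IL-27, fell in EX527 (-0.55) and in MC2494 (-0.29). IL4R, the chain that binds IL-4, fell in EX527 (-0.44) and differed from control by 0.05 ± 0.07 in MC2494 (limma adjusted p = 0.57). IL2RB, a signalling chain for IL-2 and IL-15, rose in MC2494 (0.56) and in EX527 (0.34, not called in replicates 3 and 4 alone). The IL-10 receptor chains were called higher in MC2494, IL10RA by 0.29 and IL10RB by 0.34, and the call for IL10RB was lost with both changes of scaling. The 39 tested probes that were not called at 1.5-fold in any comparison had log2 differences between -0.57 and 0.57.

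By class, more ligand probes were called lower than higher in MC2494, and receptor probes split evenly at any fold but mostly fell at 1.5-fold or more. In MC2494 against control 43 of the 64 probes were called, or 67.2%, beside 70.8% of all 13174 probes. Of the 64, 18 were higher, beside 35.4% of all probes, and 25 lower, beside 35.3%. Among 25 ligand probes 16 were lower and 4 higher, with a median log2 difference of -0.35, or -0.22 with undetected groups at their bound, beside -0.01 over all probes. Among 35 receptor probes 10 were higher and 9 lower, with a median of 0.04, which became -0.04 with median scaling. Of 13 chemokine ligand probes 10 were lower, and of 12 interleukin ligand probes 6. At 1.5-fold or more 6 of the 64 were higher and 13 lower, beside 16.4% and 15.7% of all probes, or 32.1% together. Among them 2 ligand probes were higher and 6 lower, and 2 receptor probes higher and 7 lower, with CXCR4 counted on 2 probes. All 4 regulator probes, of IL1RN (counted on 2 probes), IL18BP and IL4I1, were called higher. The call for IL18BP was lost with both changes of scaling, in either pair of replicates alone and without control replicate 1. IL4I1 (0.37) was dim, with means of 5.15 in control and 5.52 in MC2494, and was detected on 2 of 4 control arrays. Groups stood apart without overlap for 18 ligand and 16 receptor probes, beside 64.0% of all probes. The difference between ligands and receptors was not tested.

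In EX527 against control 39 of the 64 probes were called, or 60.9%, beside 54.3% of all probes. Of the 64, 12 were higher, beside 24.3% of all probes, and 27 lower, beside 30.0%. Ligands were split, with 8 higher and 10 lower and a median of 0.05, or -0.03 with median scaling. Of the receptor probes 14 were lower and 4 higher, with a median of -0.15 beside -0.04 over all probes. Of 26 interleukin receptor probes 10 were lower and 3 higher, and of 9 chemokine receptor probes 4 and 1. At 1.5-fold or more 3 were higher and 8 lower, beside 7.84% and 3.67% of all probes, or 11.5% together. Among the lower ones CCL23 and CXCR4 each counted on 2 probes. No overlap was seen for 31 of the 64 probes, beside 49.7% of all probes.

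MC2494 against EX527, compounds whose doses are not given and may differ, called 40 of the 64 probes, or 62.5%, beside 60.4% of all probes. Of the 64, 23 were higher in MC2494, beside 31.4% of all probes, and 17 lower, beside 29.0%. Ligands were lower for 11 and higher for 6 probes, with a median of -0.16. Receptors were higher for 13 and lower for 6 probes, with a median of -0.01. CX3CR1 (3.31) and CXCL16 (1.43) led upward, and CCL2 (-2.22), CXCL8 (-2.03) and IL37 (-1.99) downward. At 1.5-fold or more 7 were higher and 9 lower, beside 9.63% and 9.79% of all probes, or 19.4% together. No overlap was seen for 36 of the 64 probes, beside 54.2% of all probes.

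**Figure D3:**
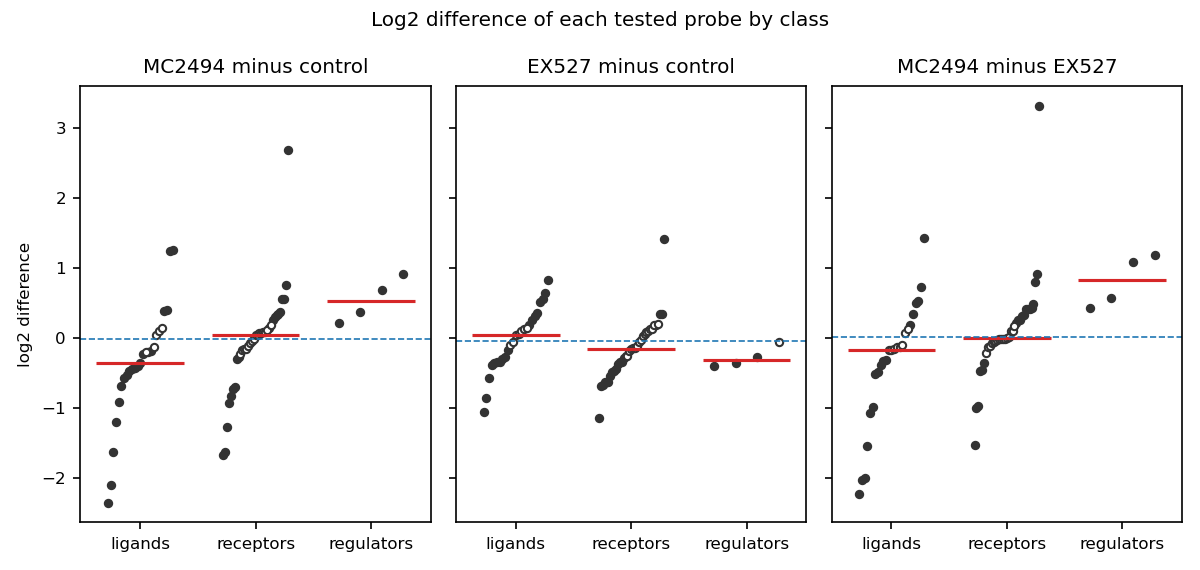
Log2 difference (vertical axis) of each tested ligand (25), receptor (35) and regulator (4) probe in the 3 comparisons; filled points were called, open points were not, red bars are class medians and the dashed line is the median of all probes. In MC2494 minus control the ligand median lies at -0.35 and the receptor median at 0.04.

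**Figure D4:**
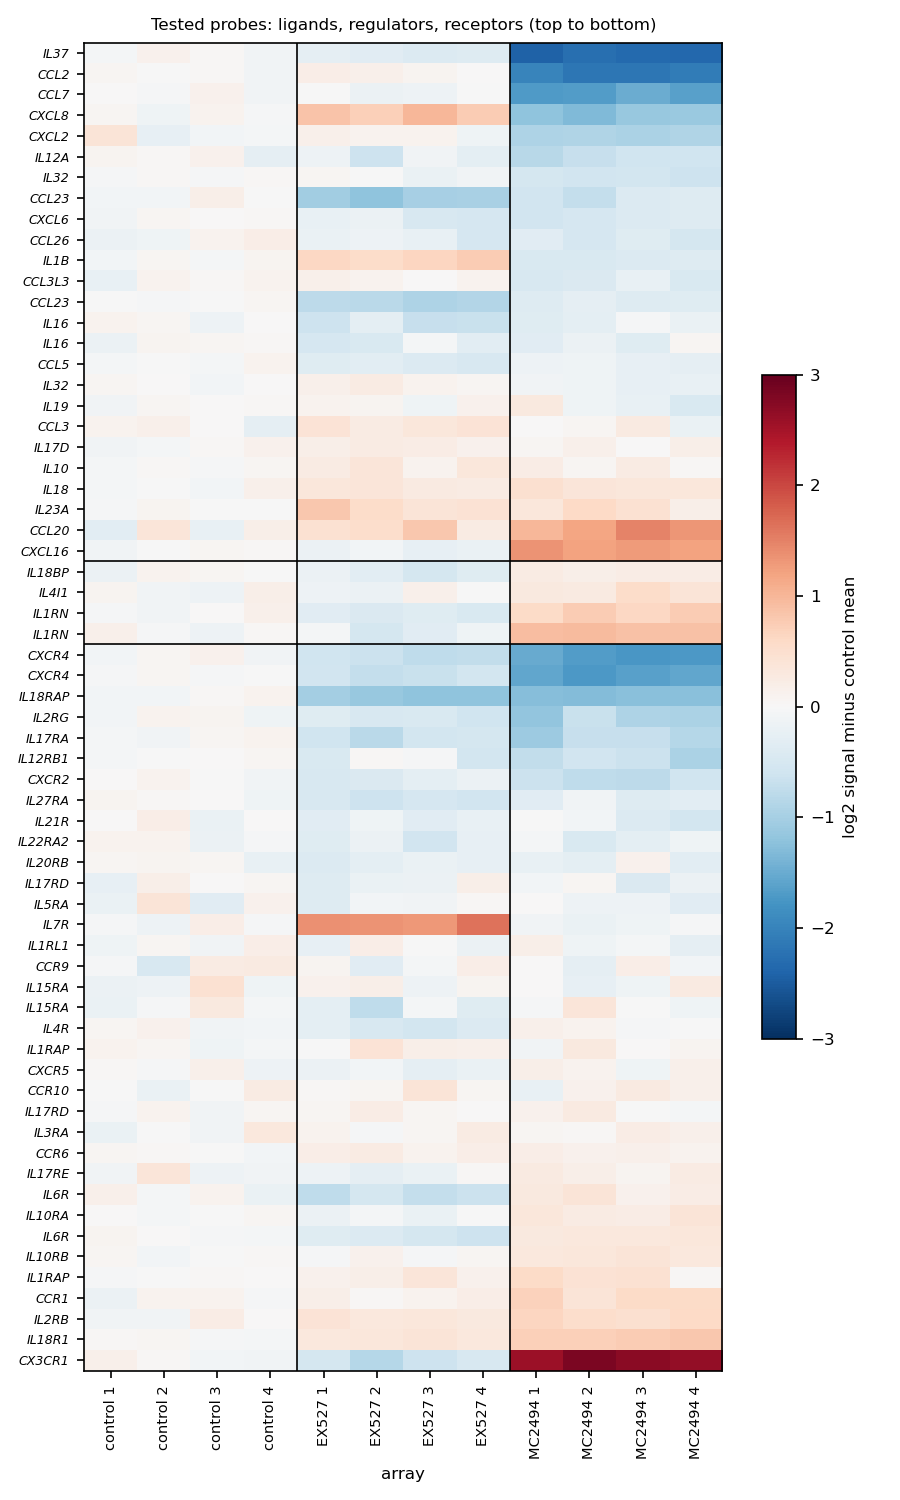
Log2 signal minus the control mean (colour) of the 64 tested probes (rows; ligands, regulators and receptors, each in order of the difference of MC2494 from control) on the 12 arrays (columns). IL37, CCL2, CCL7 and both CXCR4 probes are low on all 4 MC2494 arrays, CX3CR1 is high there, and IL7R is high on all 4 EX527 arrays.

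Of the genes with more than 1 tested probe, CCL23, CXCR4, IL1RN, IL6R and IL16 had probes of 1 sign in each comparison. The probes of IL15RA differed in sign in all 3 comparisons, those of IL17RD in both comparisons with control, those of IL32 in EX527 against control, and those of IL1RAP between the compounds. Neighbouring genes did not always move alike. CCL2 and CCL7 fell together in MC2494. CXCL6, the neighbour of CXCL8, passed the filter through control alone, so its direction follows in part from the filter and is not compared. IL18R1 and IL18RAP went opposite ways in both comparisons with control, and IL1B and IL37 did so in EX527.

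The genes that carry these signals inside the cell were read from lists, each gene on its brightest tested probe. Over all 13174 probes, 35.4% were called higher and 35.3% lower in MC2494, and 24.3% and 30.0% in EX527, which are the shares to read the counts against. Of 25 listed JAK, STAT and SOCS pathway genes 18 were measured, and in MC2494 10 were higher and 6 lower. The largest differences were those of SOCS5 (1.31) and SOCS4 (1.19), of the family that curbs cytokine signals, and of JAK2 (1.30), a kinase of many cytokine receptors. In EX527 5 were higher and 5 lower, with SOCS5 at 0.89, SOCS4 at 0.83 and JAK2 at 0.79. Of 17 listed genes of IL-1 and Toll signalling 15 were measured, and in MC2494 7 were higher and 5 lower, beside 70.8% of all probes called in either direction. CASP1, the protease that matures IL-1 beta and IL-18, rose (1.26 ± 0.05, limma adjusted p = 7.61e-11), and IRAK3, a brake on this pathway, fell (-1.10 ± 0.07, adjusted p = 3.23e-09). In EX527 2 were higher and 9 lower, among them the inflammasome sensor NLRP3 (-0.64) and the adaptor MYD88 (-0.46).

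Of 27 listed genes of chemokine receptor signalling 19 were measured, and in MC2494 6 were higher and 6 lower, beside 70.8% of all probes called in either direction. RGS2, which shortens G protein signals, stood at 1.16, the receptor kinase GRK6 at -1.13 and the lipid kinase PIK3CG at -1.09. In EX527 3 were higher and 9 lower, with the G protein subunit GNG2 at -1.08, the scavenging receptor ACKR2 at -0.88 and RGS18 at 0.84. RGS18 stood at 0.93 in MC2494, and RGS2 at -0.69 in EX527. Of 35 other cytokine and cytokine receptor genes 22 were measured. In MC2494 7 were higher and 9 lower, and in EX527 3 and 12, beside 70.8% and 54.3% of all probes called. TNF, the inflammatory cytokine, fell in MC2494 (-1.33 ± 0.05) and in EX527 (-1.20 ± 0.05), while CXCL8 and IL1B rose in EX527. PPBP, a CXC chemokine under another name, was detected on no MC2494 array and was at least 1.81-fold lower there than in control (limma adjusted p = 1.45e-08). IFNAR1, a chain of the type I interferon receptor, rose in MC2494 (1.30 ± 0.08), and CSF1R, the receptor of macrophage colony-stimulating factor, fell in EX527 (-1.02 ± 0.06).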

How the data were processed

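U937 RNA was measured on Illumina bead arrays from 3000 ng of total RNA, per the labels' protocols, and groups followed the treatment label. The deposited table gives each probe's average bead intensity, which its values show to be linear and not scaled between arrays, with a p-value of detection beside it, per the file headers. Log2 values that the authors deposited in a separate table had been quantile normalized, since its columns share their sorted values within 0.000955. That table was used as an alternative. The submitters' processing notes name limma, and the scanner software is not given in the sources used here.

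Signals were background-corrected, quantile normalized and log2 transformed by the neqc function (limma 3.58.1, R 4.3.3, offset 16), which makes changes relative to the rest of the genes. Probes with a detection p under 0.05 on at least 4 arrays were kept (13174 of 24526). Group means over 12 arrays were fitted to all kept probes with lmFit and eBayes, and 2-sided p-values were adjusted over every kept probe (Benjamini-Hochberg, threshold 0.05). A probe detected on no array of the dimmer group has only a bound. For each array the dim probe's own signal or the lowest signal that was detected, whichever was higher, stood in for it and was compared with the mean of the brighter group. Symbols came from the platform annotation, which gives 21834 probes 1 symbol, 0 several and 2692 none, and no member carried an older symbol by RefSeq. The number of arrays limits the precision. The fit was tested on simulated data.

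Per-array values were given for the probes called at 1.5-fold or more in some comparison (25 probes, 21 genes). In the signalling lists, genes were named from the 3 largest called differences of each comparison. Smaller differences, the markers, CXCL6 and the genes detected on no array were named after their values were seen. The members and lists were chosen with earlier results of these data known. Alternatives varied the normalization (background, offset, scaling, or the deposited log2 values), the filter and choice of probes, the model (variance trend, array weights, replicate block, replicate pairs as a batch, groups fitted), and the threshold, and dropped single arrays.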

Additional observations from a re-analysis of the deposited data

Results flagged for a closer look

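Among 192 groups of 4 arrays, 6 held an array far from the other 3 of its group, where chance flags about 1 in 20 groups, or 9.6. CCR10 read 5.355 on EX527 replicate 3 and 4.992 to 5.033 on the other EX527 arrays. The dimmer IL15RA probe read 5.557 on control replicate 3 and 4.93 to 4.968 on the other controls. The brighter IL16 probe read 6.34 on EX527 replicate 2 against 5.954 to 6.012, and its dimmer probe 5.142 on control replicate 1 against 5.351 to 5.387. IL17RE read 5.344 on control replicate 2 against 4.816 to 4.874, and IL20RB 5.055 on control replicate 4 against 5.334 to 5.348.

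A further 6 probes outside the tests were detected on a treated array, above every control array, and on no control array. CCL16 read 5.218 on MC2494 replicate 3, with controls of 4.81 to 5.156. CXCR3, a receptor of activated T cells, read 5.515 on MC2494 replicate 2, with controls of 4.881 to 5.144. IL17B read 5.223 on that array (controls 4.787 to 5.11), and IL6ST, the signalling chain of the IL-6 receptor, 5.093 (controls 4.508 to 4.938). IL17RC read 5.204 on EX527 replicate 3 (controls 4.631 to 5.157), and IL25 5.372 on EX527 replicate 2 (controls 4.747 to 4.85). Other untested probes went the opposite way and were detected on control arrays alone. They were probes of IL12RB1 on 3 arrays and of CCL25, IL31RA, IL21R and IL36B on 1 array each.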

How the results depend on the processing

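Of the calls in MC2494 against control, 33 of 43 were kept under every alternative other than stricter thresholds, against 20 of 39 in EX527 against control and 29 of 40 between the compounds. CCL5 between the compounds turned from 0.19 to -0.0044 with no scaling, and CCR6 in MC2494 from 0.15 to -0.048 with median scaling and -0.052 with none, none of these being called. With at least 1.5-fold required, MC2494 against control left 6 higher and 13 lower probes (ligands 2 and 6, receptors 2 and 7), EX527 against control 3 and 8 (ligands 2 and 2, receptors 1 and 6), and MC2494 against EX527 7 and 9 (ligands 2 and 6, receptors 3 and 3). At adjusted p under 0.01, EX527 left 5 higher and 6 lower ligand probes. The fits to either pair of replicates, and with the pairs as a batch term, were added after the data were seen. In replicates 3 and 4 alone EX527 had 7 higher probes, 4 of them ligands, and 8 receptor probes were higher in MC2494 than in EX527. Leaving out 1 array at a time gave 17 to 19 higher and 23 to 26 lower probes in MC2494, 11 to 13 and 23 to 28 in EX527, and 22 to 24 and 16 to 18 between the compounds.

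The all-probe median of MC2494 minus EX527 moved from 0.01 to -0.10 with no scaling, and the share of higher among all its calls from 52% to 41.2% with median scaling and 35.2% with none. Arrays of different groups with the same replicate number gave r from -0.0446 to 0.184 over 12 pairs, 4 of them over 0.1, so the numbers do not pair single arrays. Arrays of replicates 1 and 2, and those of 3 and 4, deviated somewhat more alike across groups: of 24 pairs within replicates 1 and 2 or within 3 and 4, 9 had r over 0.1 (median 0.0784), and of 24 pairs across these sets 0 (median -0.0849). With these sets as a batch term, MC2494 had 18 higher and 24 lower probes, EX527 13 and 28, and MC2494 against EX527 23 and 18. That term lost 1 call (IL16 in MC2494) and added those of IL17RA between the compounds and of IL21R and an IL32 probe in EX527. With replicate number as a block, EX527 had 13 higher probes, 9 of them ligands, and MC2494 had 15 lower ligand and 10 lower receptor probes, the other counts being unchanged. Signal over background limits the rest, with 64 of the 182 probes tested.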
